A study of Homo sapiens with 8 samples.

Results

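The phagocyte NADPH oxidase is described here through 5 of its genes, CYBA, CYBB, NCF1, NCF4 and RAC2, in MonoMac 6, an established line derived from acute monocytic leukaemia. The genes were chosen by their function, not by their values, though earlier results of these data were known. They were taken from the deposited table by gene symbol. All 5 were among its 11530 genes and among the 11257 that passed a filter on low values (a linear value of at least 1 in at least 4 libraries). RNA was sequenced from 4 control libraries and 4 libraries of cells given APRIL, a cytokine of the TNF family encoded by TNFSF13, used at 100 ng/mL over 24 h. APRIL was given in serum-free RPMI; the cultures were grown with 10% serum, and the serum in the control medium during the 24 h is not given in the sources used here, so APRIL and the medium cannot be told apart. The series text adds baseline cytokines, without naming them, to the medium of both groups. Both groups are the same single line, and the labels number the libraries without calling them separate cultures. The p-values therefore set a difference only against the spread of these libraries within their groups, and that spread may be technical. In bulk RNA, fewer cells of one kind and less RNA per cell cannot be told apart.

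The oxidase carries electrons from NADPH across a membrane to oxygen and so makes superoxide, which phagocytes use to kill ingested microbes. Its core is a membrane flavocytochrome built of the CYBB and CYBA proteins. At rest the NCF1 and NCF4 proteins wait in the cytosol with the GTPase RAC2, and on activation they join the membrane core. Loss of CYBB, CYBA, NCF1 or NCF4 in people causes chronic granulomatous disease, in which phagocytes make too little superoxide.

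Values are log2 as deposited, after scaling of each library by the authors, and a change is the APRIL mean minus the control mean on that log2 scale with its standard error from limma. The columns of values name the group and carry no library number, so the libraries are called column 1 to 4 of their group by position. Whole reads could be recovered for 11183 genes, and their sum ran from 958668 in APRIL column 3 up to 5430799 in APRIL column 2. APRIL column 3 stood apart. It was the shallowest library and received the lowest limma quality weight, 0.117, followed by control column 1 at 0.316, while the highest weight was 5.46. Across 10806 genes, the change had a Spearman's rho of -0.54 with transcript length and of 0.51 with GC content, given as a description since genes are not independent. Changes are therefore also given without these libraries and with each library's trend with length and GC removed. The part of depth, length and GC content in the changes was not tested.

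No oxidase gene passed the test between APRIL and control. The adjusted threshold of 0.05 in limma called 0 of 5 members, where it called 0% of all genes tested. CYBA, the smaller chain of the flavocytochrome, had the largest difference at +0.82 ± 0.37, and its partner CYBB the smallest at -0.05 ± 0.20. NCF1 and NCF4 had differences of +0.33 ± 0.18 and +0.30 ± 0.13, and RAC2 of +0.13 ± 0.17. The change was positive for 4 of 5 members against 49.3% of all genes tested. At an unadjusted p under 0.05, 1 of 5 members (NCF4) was higher with APRIL, against 6.25% of all genes tested. In none of the 5 did the APRIL values lie wholly above the control values, which happened for 3.62% of genes, or wholly below them, which happened for 4.19%.

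**Figure D1:**
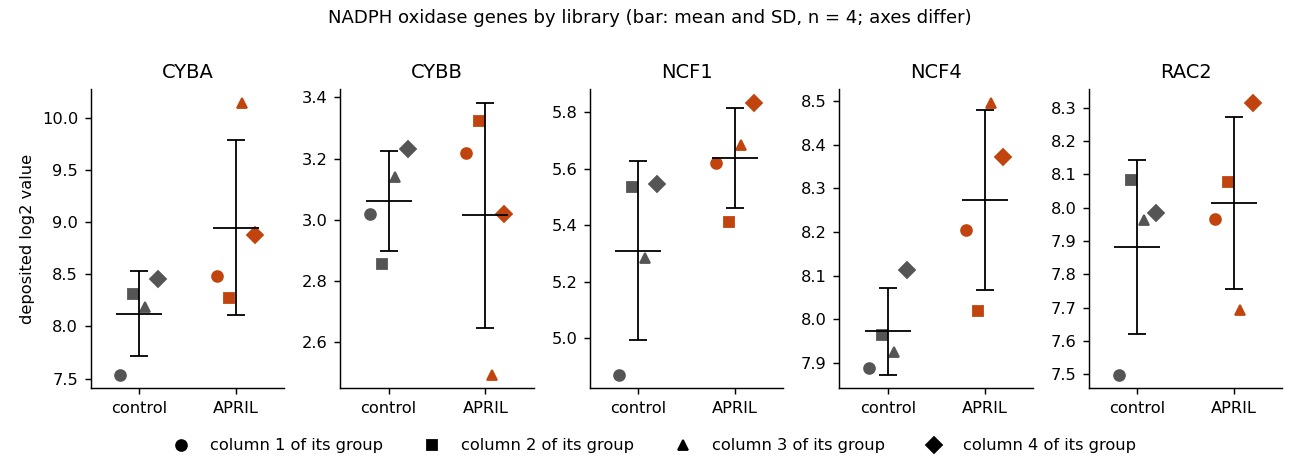
Deposited log2 value of each oxidase gene in each library (points, with the shape giving the column within the group) with the group mean and SD (bars, n = 4); the vertical axes differ and do not start at 0. The groups overlap in every panel, and APRIL column 3 is the highest APRIL library for CYBA and NCF4 and the lowest for CYBB and RAC2.

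CYBB encodes the catalytic chain, which carries the haem groups and the flavin. Its log2 values were 3.22, 3.32, 2.50 and 3.02 with APRIL (columns 1 to 4, the order kept throughout) and 3.02, 2.85, 3.14 and 3.23 in control. APRIL columns 1, 2 and 4 lay inside or just above the control range, and APRIL column 3 lay below every other library. The difference of -0.05 ± 0.20 had a 95% interval from -0.50 to 0.40 (limma, adjusted p = 0.912). It turned to +0.13 without APRIL column 3, where CYBB had 17 reads (95% Poisson interval 9.9 to 27.2, which covers counting error only), and to +0.12 once the length and GC trends were taken out. The other libraries held 36 to 197 reads of CYBB. The annotated transcript of CYBB is the longest of the 5 members at 4324 bases in 13 exons and has the lowest GC content, 40.9%, on chromosome X from 37780011 to 37813461 (GRCh38, GENCODE annotation).

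CYBA encodes the smaller chain, which stabilises CYBB and offers the docking site for NCF1. Its log2 values were 8.49, 8.28, 10.14 and 8.88 with APRIL and 7.54, 8.31, 8.19 and 8.46 in control. APRIL columns 1, 3 and 4 lay above the highest control value and APRIL column 2 lay among the controls. APRIL column 3 was the highest of the 8 libraries and control column 1 the lowest. The difference of +0.82 ± 0.37, or 1.77-fold between the means of the log2 values, had a 95% interval from -0.0023 to 1.65 (limma, unadjusted p = 0.0505, adjusted p = 0.400). An exact two-sided permutation test over libraries gave p = 0.114, where the smallest p it can give is 0.0286. Without APRIL column 3 the difference was +0.42, and without that library and control column 1 it was +0.23. With the length and GC trends removed it was +0.39. A change of this size or larger, in either direction, was seen for 1.53% of all genes tested. CYBA lies on the minus strand of chromosome 16 from 88643283 to 88651152, with a transcript of 1415 bases in 5 exons and a GC content of 61.3%.

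The proteins of CYBA and CYBB are stable only as a pair, and their RNA levels parted most in one library. The log2 value of CYBA minus that of CYBB was 5.27, 4.95, 7.65 and 5.86 in the APRIL columns and 4.52, 5.45, 5.05 and 5.23 in control. Both values are as deposited, so the differences compare libraries and do not give the relative level of CYBA and CYBB. The groups overlapped, and APRIL column 3 exceeded every other library by more than 1 log2 unit. The mean of this difference was higher by 0.87 with APRIL and by 0.30 without that library. This pair was picked after the values were seen, so no test is given.

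NCF1 encodes the organiser of the cytosolic complex, which is phosphorylated on activation and then docks on CYBA. It lies on chromosome 7 from 74773962 to 74789315 (GRCh38, plus strand) in 11 exons, between 2 near copies, the pseudogenes NCF1B and NCF1C. Of its 1347 windows of 50 bases, 84.5% also occurred in another annotated gene, against 0 for the other 4 members, so reads of NCF1 are uncertain. The aligned transcripts were identical at 99% of 1167 bases for NCF1B and at 99.4% of 1394 bases for NCF1C. The stretch around the start of exon 2 is shown because it holds a known difference between the gene and its copies, a repeated GT that pseudogene copies often lack. The capitals mark that repeat, which begins at base 143 of the NCF1 transcript, counted from 1 at its 5′ end.
NCF1: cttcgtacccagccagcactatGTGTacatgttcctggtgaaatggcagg
NCF1B: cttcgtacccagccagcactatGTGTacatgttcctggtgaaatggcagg
NCF1C: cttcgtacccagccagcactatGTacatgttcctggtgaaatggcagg
These are the reference sequences, not those of MonoMac 6. In the reference, NCF1B holds the same 50 bases as NCF1, while NCF1C has 48 bases with 1 GT.

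The log2 values of NCF1 were 5.62, 5.41, 5.69 and 5.83 with APRIL and 4.87, 5.54, 5.29 and 5.55 in control. APRIL columns 1, 3 and 4 lay above every control value, and control column 1 was the lowest library. The difference of +0.33 ± 0.18 had a 95% interval from -0.07 to 0.72 (limma, adjusted p = 0.404; exact permutation p = 0.114). Without control column 1 it was +0.18, and with the length and GC trends removed it was -0.04. The trend fit took NCF1 at 2354 bases, its longest transcript of any type, against 1396 for the longest protein-coding one. NCF1B had log2 values of 5.57, 5.53, 5.62 and 5.67 with APRIL and 4.87, 5.50, 5.63 and 5.61 in control, a difference of +0.19 ± 0.18. NCF1C had 6.70, 6.41, 7.23 and 6.94 with APRIL and 6.16, 6.35, 6.38 and 6.42 in control, a difference of +0.49 ± 0.18. For NCF1C, APRIL columns 1, 3 and 4 lay above the controls and APRIL column 2 just within them (limma, unadjusted p = 0.0191, adjusted p = 0.400). With the trends removed the differences were -0.24 for NCF1B and +0.04 for NCF1C. Since the copies share reads, the recovered reads of NCF1, NCF1B and NCF1C were also summed. The sums came to 407, 674, 137 and 519 reads with APRIL and 183, 177, 227 and 398 in control. Fitted as log2 reads scaled to library depth, the sum differed by +0.34 ± 0.16 (limma, adjusted p = 0.400), and by +0.16 without APRIL column 3 and control column 1.

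NCF4 encodes the cytosolic subunit that binds phosphoinositides of the phagosome membrane. Its log2 values were 8.21, 8.02, 8.50 and 8.37 with APRIL and 7.89, 7.96, 7.93 and 8.11 in control. APRIL columns 1, 3 and 4 lay above the highest control value, and APRIL column 2 lay below control column 4. The difference of +0.30 ± 0.13 had a 95% interval from 0.0086 to 0.59 (limma, unadjusted p = 0.0447, adjusted p = 0.400; exact permutation p = 0.0571). Its unadjusted p was no longer under 0.05 when APRIL column 1, 3 or 4 or control column 1, 2 or 3 was left out, when limma ran without its trend and robust step, under quantile normalization, or with the length and GC trends removed. Without APRIL column 3 and control column 1 the difference was +0.20, and with the length and GC trends removed it was -0.04. NCF4 lies on chromosome 22 from 36860988 to 36878015 (GRCh38), and its exons overlap those of the antisense gene NCF4-AS1. The library kit keeps no strand information, so reads within the overlap cannot be assigned to one gene of the pair.

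RAC2 encodes the GTPase of blood cells that switches the complex on. Its log2 values were 7.97, 8.08, 7.69 and 8.31 with APRIL and 7.50, 8.08, 7.96 and 7.98 in control. The groups overlapped, with APRIL column 4 highest and control column 1 lowest. The difference of +0.13 ± 0.17 had a 95% interval from -0.25 to 0.51 (limma, adjusted p = 0.682). It was +0.0030 without control column 1, and removal of the trends gave -0.21. RAC2 lies on the minus strand of chromosome 22 from 37225261 to 37244448 (GRCh38), with a transcript of 1482 bases.

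**Figure D2:**
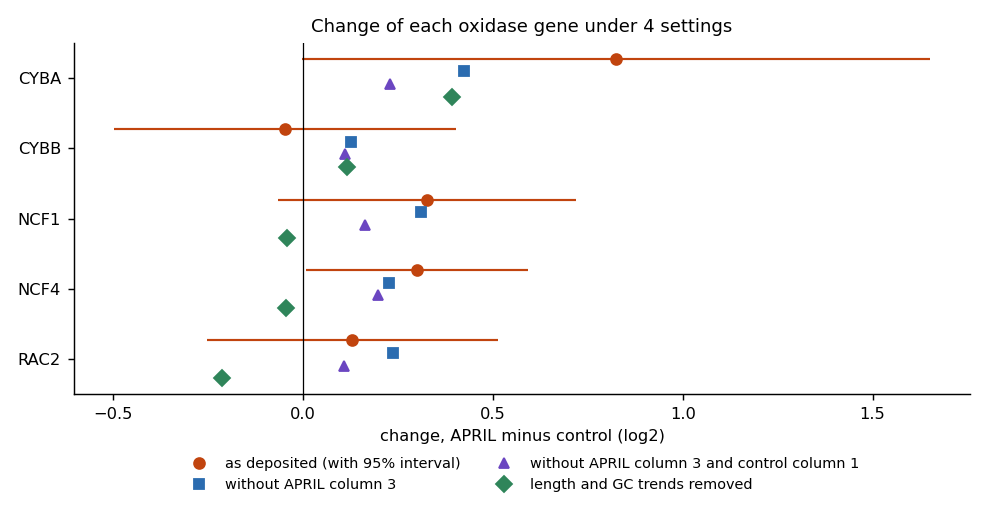
Change of each oxidase gene, APRIL minus control in log2, as deposited with its 95% interval from limma (circles and lines) and under 3 other settings (squares, triangles and diamonds). CYBA moves from +0.82 to +0.23 without APRIL column 3 and control column 1, and NCF1, NCF4 and RAC2 fall below 0 when the length and GC trends are removed.

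Under these settings the members' signs differed. Without APRIL column 3 the change was positive for 5 of 5 members, against 49.8% of all genes tested, and without control column 1 as well it was positive for 5 of 5, against 49.2%. With the length and GC trends removed it was positive for 2 of 5, CYBA and CYBB, against 47.5% of genes in that fit. The median change of the 5 members was +0.30 as deposited, +0.24 without APRIL column 3 and -0.04 after removal of the trends, beside -0.0053 over all genes tested as deposited.

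The order of levels between the genes was read from the recovered reads, per kilobase of transcript and per 1e6 recovered reads. The length was that of the longest protein-coding transcript annotated for each gene, and the order depends on this choice. CYBA had the highest level in control at 198 ± 49 (SD, n = 4), followed by RAC2 at 136 ± 22, NCF4 at 108 ± 7.7, NCF1 at 43.3 ± 8.8 and CYBB at 6.94 ± 0.81. With APRIL the order was the same, at 373 ± 225 for CYBA, 146 ± 31 for RAC2, 130 ± 13 for NCF4, 52.3 ± 6.5 for NCF1 and 6.73 ± 1.9 for CYBB. The range of RAC2 overlapped that of NCF4 in both groups, and in control it also overlapped that of CYBA. On the deposited log2 values, which carry another scaling per gene, the mean of NCF4 lay above that of RAC2. These means were 7.97 against 7.88 in control and 8.27 against 8.01 with APRIL, so the order of RAC2 and NCF4 is not settled. NCF4 and NCF1, and NCF1 and CYBB, did not overlap in either group. The value of NCF1 carries the uncertainty of its shared sequence.

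**Figure D3:**
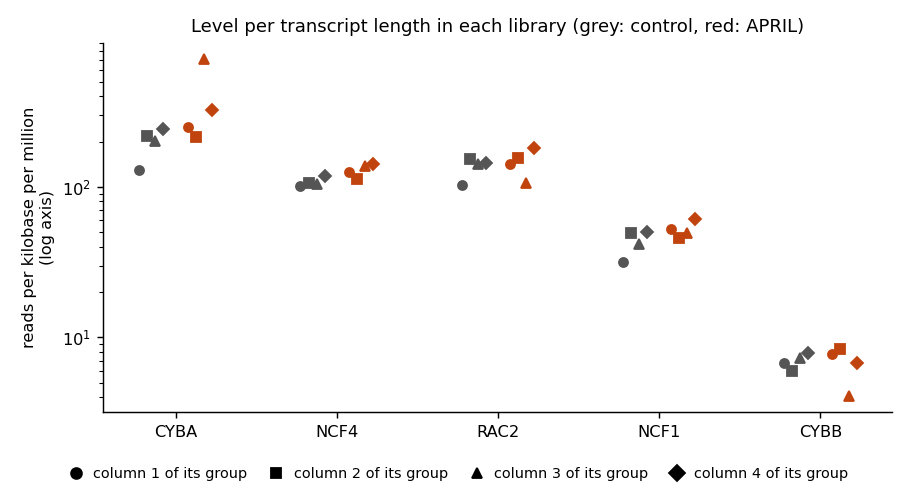
Level of each gene in each library in reads per kilobase of transcript per 1e6 recovered reads (points, log axis; grey for control, red for APRIL; the shape gives the column within the group). CYBA, RAC2 and NCF4 lie above NCF1, and CYBB lies below 10 in every library.

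Of the other components of the oxidase, 6 of 7 listed symbols were in the table and 0 passed limma's adjusted threshold. At an unadjusted p under 0.05, 2 of 6 were higher, NCF1C and C17orf62, against 6.25% of all genes tested. C17orf62 is the older symbol of CYBC1, the chaperone needed for the flavocytochrome to mature. Both symbols of this gene were listed, and only C17orf62 was in the table. It had log2 values of 5.96, 6.01, 6.39 and 6.25 with APRIL and 5.54, 5.82, 5.77 and 5.93 in control. Every APRIL value lay above every control value, with a difference of +0.39 ± 0.15 (limma, unadjusted p = 0.0241, adjusted p = 0.400). It was +0.31 without APRIL column 3, and removal of the trends gave +0.30. Without APRIL column 3 and control column 1 it was +0.23. The trend fit took C17orf62 at 4327 bases, its longest transcript of any type, against 2242 for the longest protein-coding one. The exons of C17orf62 overlap those of HEXDC on the other strand, so some reads may belong to that gene. RAC1, the widely expressed relative of RAC2, differed by -0.05 ± 0.16. RAP1A, a GTPase that copurifies with the flavocytochrome, differed by +0.04 ± 0.19, and HVCN1, the proton channel that balances the charge moved by the oxidase, by +0.05 ± 0.16. The groups of all 3 overlapped. Of the 10 other listed genes of the NOX family, among them NOX1, NOX4 and DUOX1, 0 were in the table.

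Further lists covered what feeds, switches and surrounds the oxidase. In all of them 0 genes passed limma's adjusted threshold, so the following are differences that did not pass. Counts at an unadjusted p under 0.05 stand beside 6.25% of all genes tested that were higher and 5.69% that were lower, and groups that do not overlap beside 3.62% of genes wholly above and 4.19% wholly below. Of 19 kinases and lipid signalling genes, 6 had a positive and 13 a negative change, with a median of -0.07 that was -0.04 without APRIL column 3. Removal of the trends gave a median of -0.0077. An unadjusted p under 0.05 was found for 1 of 19, near the share of all genes that were lower. That was PIK3R4, a subunit of the kinase that makes the lipid bound by NCF4, with all APRIL values below all control values and a difference of -0.41 ± 0.16, or -0.25 with the trends removed. Of 15 RAC exchange factors and inhibitors, 3 were positive and 12 negative, with a median of -0.13. The smallest p among them belonged to ARHGEF6, an exchange factor, at -0.36 ± 0.20, which was -0.16 without APRIL column 3 and -0.05 without control column 1 as well. Without APRIL column 3 the median of this list was -0.03. With the trends removed it was -0.14, with 3 of 15 positive.

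Of 14 genes for the disposal of superoxide and peroxide, 13 had a positive change, against 49.3% of all genes tested. The median was +0.24, and +0.08 without APRIL column 3. Without that library 10 of 14 were positive, and with the trends removed also 10 of 14. Without APRIL column 3 and control column 1, 13 of 14 were positive, against 49.2% of all genes tested, with a median of +0.09. As deposited, the unadjusted p was under 0.05 in 4 of 14, all higher, against 6.25% of all genes tested. GPX1, a glutathione peroxidase, had log2 values of 8.45, 8.13, 10.26 and 8.72 with APRIL and 7.55, 8.06, 7.92 and 8.18 in control, a difference of +0.96 ± 0.39 that was +0.51 without APRIL column 3. GPX4, which reduces lipid peroxides, differed by +0.58 ± 0.20, the peroxiredoxin PRDX2 by +0.57 ± 0.23, and PRDX5 by +0.75 ± 0.33. PRDX2 stood at +0.35 and PRDX5 at +0.38 when APRIL column 3 was left out. With the trends removed the differences were +0.43 for GPX1, +0.09 for GPX4, +0.27 for PRDX2 and +0.24 for PRDX5. APRIL column 3 was the highest library for all 4, as it was for CYBA.

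Of 6 genes that use or restrain the oxidase's products, all 6 had a positive change, against 49.3% of all genes tested. The median was +0.40 as deposited and -0.0083 with the trends removed, when 2 of 6 were positive. It was +0.23 without APRIL column 3, with 5 of 6 positive, and +0.15 without control column 1 as well, with 4 of 6. As deposited, 2 of 6 genes had APRIL values wholly above control, against 3.62% of all genes tested. ELANE, the neutrophil elastase, differed by +0.73 ± 0.25 with all APRIL values above all control values, and PRTN3, a related serine protease, by +0.58 ± 0.24. These were +0.50 and +0.40 without APRIL column 3, and +0.13 and -0.0090 with the trends removed. Of 6 genes that supply NADPH, 4 were positive and 2 negative, with a median of +0.19. The median was +0.10 without APRIL column 3. Removal of the trends gave a median of -0.06, and then 2 of 6 genes were positive. PGLS, of the pentose phosphate pathway, differed by +0.65 ± 0.20, or +0.24 with the trends removed, and ME1, the cytosolic malic enzyme, by -0.40 ± 0.14.

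**Figure D4:**
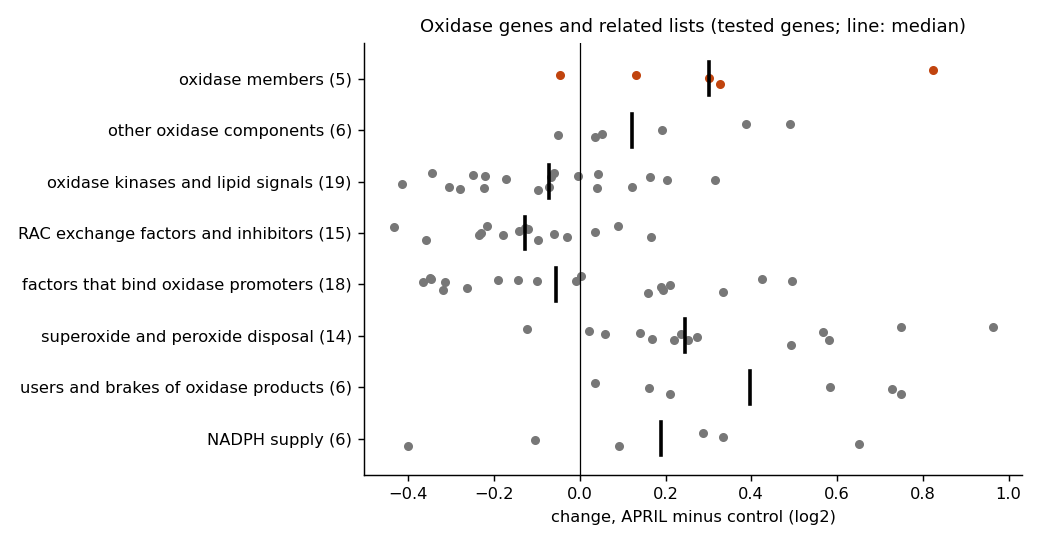
Change of every tested gene of the oxidase and of related lists, APRIL minus control in log2 (points; the vertical spread within a list has no meaning), with the median of each list (thick line) and the number of genes tested in parentheses. The medians run from -0.13 for the RAC regulators to +0.40 for the users and brakes of oxidase products.

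Of 18 factors known to bind promoters of oxidase genes, 8 had a positive and 10 a negative change, with a median of -0.05, and 2 were higher and 3 lower at an unadjusted p under 0.05, against 6.25% and 5.69% of all genes tested. SPI1, the myeloid factor that binds purine-rich boxes in the CYBB and NCF1 promoters, had log2 values of 5.43, 5.20, 5.38 and 5.58 with APRIL and 4.83, 5.32, 5.22 and 5.38 in control, a difference of +0.21 ± 0.16 that turned to -0.30 with the trends removed. It is named as background to the sequences that follow. IRF1 differed by +0.42 ± 0.17 and CEBPD by +0.49 ± 0.21, while MEIS1 differed by -0.31 ± 0.11 and NFYA, a subunit of the CCAAT-binding factor, by -0.35 ± 0.13. The groups of IRF1, MEIS1 and NFYA did not overlap. Of the 18 factors, 2 had APRIL values wholly above control and 2 wholly below, against 3.62% and 4.19% of all genes tested. With the trends removed CEBPD stood at -0.02, MEIS1 at -0.12, NFYA at -0.26 and IRF1 at +0.48.

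The promoters of CYBA, CYBB and NCF1 could be matched in RefSeq (GRCh38.p14), 3 of 5 members. The RefSeq start of each lies inside the gene span given above from GENCODE, so the windows below lie partly or wholly within that span. The 250 bases before the RefSeq start were searched on both strands for a purine-rich box spelled GAGGAA, a box spelled CCAAT, the TATA box in its form TATAAA, and the GC box in its form GGGCGG. Short windows are shown because they set the 2 promoters with the purine-rich box beside that of CYBA, the member with the largest difference. The capitals mark GAGGAA, read here on its other strand as TTCCTC, or GGGCGG.
CYBB, chrX:37779999-37780028, plus strand: tgctgttttcatTTCCTCattggaagaaga
NCF1, chr7:74773954-74773983, plus strand: gacaaaagcgacTTCCTCtttccagtgcat
CYBA, chr16:88651074-88651103, minus strand: ggGGGCGGggcctGGGCGGGGCGGggttcg
GAGGAA occurred once in the CYBB and once in the NCF1 promoter, its first base 48 and 45 bases before the RefSeq start, and not in the CYBA promoter. It was found in 23.6% of 35116 promoters of the same length. GGGCGG occurred 6 times in the CYBA promoter and in 42.6% of all promoters. CCAAT occurred 4 times in the CYBB promoter and in 32% of all promoters, and TATAAA in none of the 3 and in 10.7% of all. The GC content was 73.6% for CYBA, 34% for CYBB and 56.4% for NCF1. A match is a run of letters and not a measured binding site.

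The genes whose 8 values followed each member most closely were found by Pearson's correlation across the libraries, which share depth and composition. For CYBA they were APOA1BP and PHPT1, both at 0.997, and 586 genes exceeded 0.95. For CYBB they were PET117 at 0.968 and CTBP2 at 0.964, with 4 genes above 0.95. For NCF1 they were KIAA2013 and TOMM40, for NCF4 FUZ and MALSU1, and for RAC2 GRIN2D and GYS1, all between 0.984 and 0.995.

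The identity of the cells was checked against marker lists. Of 12 monocyte markers, 10 were in the table, among them CD14, LYZ and CSF1R, and CD68 and CD4 were not. The log2 of the summed linear monocyte markers ran from 10.09 to 10.93 with APRIL and from 10.2 to 10.45 in control. Of the T and NK cell list, NKG7 and CD8A were in the table and CD3D, CD3E and CD3G were not. The log2 sum of these markers ran from 10.86 to 12.2 with APRIL and from 10.75 to 10.93 in control, highest in APRIL column 3. NKG7 made up nearly all of this sum, at 12.19 in APRIL column 3, where CD8A stood at 2.83. The change was +0.46 ± 0.25 for NKG7 and -0.0034 ± 0.18 for CD8A. Of 10 B and plasma cell markers 5 were in the table, at log2 sums from 7.14 to 7.73 with APRIL and from 7.13 to 7.45 in control. Of 8 neutrophil markers, CSF3R and CXCR2 were in the table, and of the erythroid and the fibroblast, epithelial and endothelial lists 0 were. The part of other cell types in the changes was not tested.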

How the data were processed

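RNA was measured in 8 libraries of MonoMac 6, 4 with APRIL and 4 controls. Per the submitters' processing notes, bcl2fastq, TopHat2 2.0.13 and hg19 were used; which counter and annotation they used is not given in the sources used here. Per the file headers, the authors deposited log2 values per gene and library after TMM scaling, beside a p-value and a fold of their own for the comparison, neither of which was used for any result here. Whole reads were recovered for 97% of genes by finding, per gene, one divisor that makes the 8 values whole reads plus 0.5. The deposited levels hold that divisor, so the order of levels between genes was read from the reads. The CYBA minus CYBB differences and the marker sums were taken on the deposited levels and hold the divisors of their genes. Depth over recovered genes was 2904308, 5430799, 958668 and 3236814 reads in the APRIL columns and 2093876, 1404076, 1906157 and 3016847 in the control columns, which limits precision most in APRIL column 3.

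Each gene was tested with limma 3.58.1 in R 4.3.3 on the log2 values (intensity trend, robust empirical Bayes, group as the only term, two-sided, Benjamini-Hochberg over 11257 genes). The fit was tested on simulated data. The rest used numpy 2.4.6, Biopython 1.88, matplotlib 3.10.9, scipy 1.17.1 and pandas 2.3.3 in Python 3.11.15. Alternatives were other filters, plain limma, quality weights, median centring, quantile normalization, voom on the reads, removal of length and GC trends (splines with 5 degrees of freedom, GENCODE lengths for 95.8% of genes) and leaving out each library. For the trends, length and GC content were those of the longest annotated transcript of any type. Leaving out APRIL column 3 with control column 1, and summing NCF1 with its copies, were chosen after seeing the data. Transcripts and coordinates came from GENCODE on GRCh38, promoters from RefSeq.

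The named genes were every member, every other component in the table, and, of each further list, up to 4 genes with an unadjusted p under 0.05 by smallest p, or the gene with the smallest p; the genes most like a member were the 2 with the highest correlation. SPI1, NOX genes and sets of markers are named for their role. A few other genes are not reported here and were left out of the lists, their counts and medians. The members and lists were chosen with earlier results of these data known.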

Additional observations from a re-analysis of the deposited data

Results flagged for a closer look

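A single library lay far from the other 3 of its group, by Dixon's 95% criterion, in 5 of 50 groups over 25 genes, where chance flags about 1 in 20 groups. PRDX5 was highest in APRIL column 3 at a log2 value of 5.65, with the other APRIL columns from 4.06 to 4.28, and lowest in control column 1 at 3.38, with the other controls from 3.89 to 3.99. NFYA was lowest in APRIL column 3 at 5.20, with the others from 5.53 to 5.55. MEIS1 was lowest in control column 3 at 7.45, with the others from 7.65 to 7.67. PGLS was highest in control column 2 at 6.56, with the others from 6.23 to 6.25. Of these groups, 3 involve APRIL column 3 or control column 1, the libraries with the lowest quality weights.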

How the results depend on the processing

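No oxidase gene passed limma's adjusted threshold under any alternative run, and over all genes 0 passed except with quality weights, which called 4 (EMC9, RN7SL2 and RN7SL4P higher, 1 lower). The unadjusted p was under 0.05 for 1344 genes as deposited, 507 without control column 1, 669 without APRIL column 4, 813 without control column 3, 2247 without APRIL column 2, 846 without APRIL column 3 and control column 1, 890 with the length and GC trends removed and 1220 with voom. Of the members it was under 0.05 for 0 to 2 across these alternatives, only CYBA and NCF4. With the length and GC trends removed, the members with a positive change numbered 2 instead of 4, and the changes turned to -0.041 for NCF1, -0.043 for NCF4, -0.21 for RAC2, -0.24 for NCF1B, -0.085 for HVCN1, -0.023 for CEBPD, -0.0090 for PRTN3 and +0.12 for CYBB. Quality weights gave +0.086 for CYBB and -0.11 for HVCN1, and voom gave +0.027 for CYBB and -0.0017 for RAP1A. Without APRIL column 3 and control column 1, CYBB stood at +0.11 and HVCN1 at -0.083. Leaving out each library in turn gave ranges of 0.42 to 1.05 for CYBA, -0.15 to 0.13 for CYBB, 0.18 to 0.41 for NCF1, 0.23 to 0.39 for NCF4, 0.0030 to 0.24 for RAC2, -0.17 to 0.023 for RAC1, -0.13 to 0.14 for RAP1A and -0.071 to 0.16 for HVCN1. The cause was not tested for any of these turns. Of the other values, 327 for single named genes and 143 for the main results kept their direction and side of the threshold, or for counts stayed within 1.5 times. Depth limits CYBB most among the members, with 17 reads in APRIL column 3. No paired analysis was possible because the columns of values name the group and carry no replicate number.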
